A study of Mus musculus with 24 samples.

Results

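CC chemokines are small secreted proteins that attract and activate leukocytes, and 8 of their genes that microglia are known to use were followed here: Ccl2, Ccl3, Ccl4, Ccl5, Ccl6, Ccl7, Ccl9 and Ccl12. They are 8 of the 35519 mouse genes whose transcripts the tables list, and all 8 were among the 9803 genes abundant enough to test. The 8 were chosen by name with the phagocytosis and control levels of these libraries already known, so that comparison is described below without a test, while genotype and sex are tested. The gene lists set beside them were also chosen with earlier results of these data known, so their counts between the states are descriptions.

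The libraries were Smart-Seq2, a full-length RNA sequencing method, from 1000 microglia each, sorted as Ly6C-, CD11b+ and Fcrls+ cells from the whole brain of C57BL/6 mice. The 24 libraries come from female and male mice that were wild type (WT) or lacked neuroligin-4, an adhesion protein of synapses (NL4-/-), and each sex and genotype has 2 control libraries and 4 phagocytosis libraries. The series' text calls them biological replicates and names 5 for each phagocytosis group, of which 4 are analysed here. The labels give neither the ages, nor what was phagocytosed, nor whether the deletion is restricted to a cell type. Reads of Nlgn4l, the gene deleted, are not analysed here, so the genotype labels were not checked against it.

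CC chemokines carry a pair of adjacent cysteines near the start of the mature protein and signal through G protein-coupled receptors, which lower cyclic AMP, raise calcium and turn on the movement of the cell. Ccl2, Ccl7 and Ccl12 are ligands of Ccr2 and draw in monocytes. Ccl3 and Ccl4 are the macrophage inflammatory proteins, Ccl5 is known for drawing in T cells, and Ccl6 and Ccl9 act through Ccr1. In microglia these genes are known to be switched on by NF-kB and interferon signalling, and some of them also by the isolation of the cells.

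The family can be seen in the coding sequence. The 48 bases around the codons of the cysteine pair, from the GENCODE transcript with most reads of each gene, are shown 5′ to 3′ with the 2 cysteine codons in capitals, because they are what makes these genes one family while the flanks tell the members apart.
Ccl2: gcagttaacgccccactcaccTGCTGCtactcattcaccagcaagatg
Ccl7: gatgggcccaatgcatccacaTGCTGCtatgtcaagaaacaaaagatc
Ccl12: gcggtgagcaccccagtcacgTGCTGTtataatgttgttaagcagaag
Ccl3: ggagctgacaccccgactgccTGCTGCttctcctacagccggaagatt
Ccl4: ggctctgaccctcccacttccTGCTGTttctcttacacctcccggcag
Ccl5: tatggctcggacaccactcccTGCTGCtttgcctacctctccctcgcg
Ccl6: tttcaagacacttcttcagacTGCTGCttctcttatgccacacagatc
Ccl9: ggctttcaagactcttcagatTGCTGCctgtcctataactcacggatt
In Ccl2, Ccl3, Ccl4 and Ccl12 the window lies within exon 2 of 3, and in Ccl6 within exon 3 of 4. An intron interrupts it between exons 1 and 2 in Ccl5 and Ccl7, and between exons 2 and 3 in Ccl9. In alignments of the coding sequences with gaps left out, the closest of the 28 pairs of members were Ccl6 and Ccl9 with 70.7% of aligned bases identical, Ccl2 and Ccl12 with 69.7%, and Ccl3 and Ccl4 with 69.6%. With gaps counted, the closest were Ccl3 and Ccl4 at 66.7%, Ccl6 and Ccl9 at 64.6% and Ccl7 and Ccl12 at 63.2%. Ccl2 and Ccl12 were then at 48.4%. Over whole transcripts, untranslated parts included, the longest run of bases shared by any pair was 25, in Ccl6 and Ccl9. Reads within such a run could be split between these genes.

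The genes stand in 2 groups on chromosome 11 (GRCm38, GENCODE vM21). Ccl2 (chr11:82035571-82037453), Ccl7 (chr11:82045712-82047525) and Ccl12 (chr11:82101845-82103400) follow each other on the plus strand within 67.8 kb. Some 1422.4 kb further on, a stretch of 138.9 kb holds Ccl5 (chr11:83525778-83530518), Ccl9 (chr11:83572919-83578636), Ccl6 (chr11:83587882-83593087) and Ccl3 (chr11:83647844-83649355) on the minus strand and Ccl4 (chr11:83662584-83664683) on the plus strand. Neighbours could be alike or not. Ccl3 and Ccl4 had 108 and 85.0 mean TPM (reads per length, as a share of the library) in controls and 820 and 903 in phagocytosis libraries. Ccl6 and Ccl9 lie side by side, and their mean TPM differed little in control libraries, at 24.6 and 21.7, and more in phagocytosis libraries, at 41.7 and 149.

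**Figure D1:**
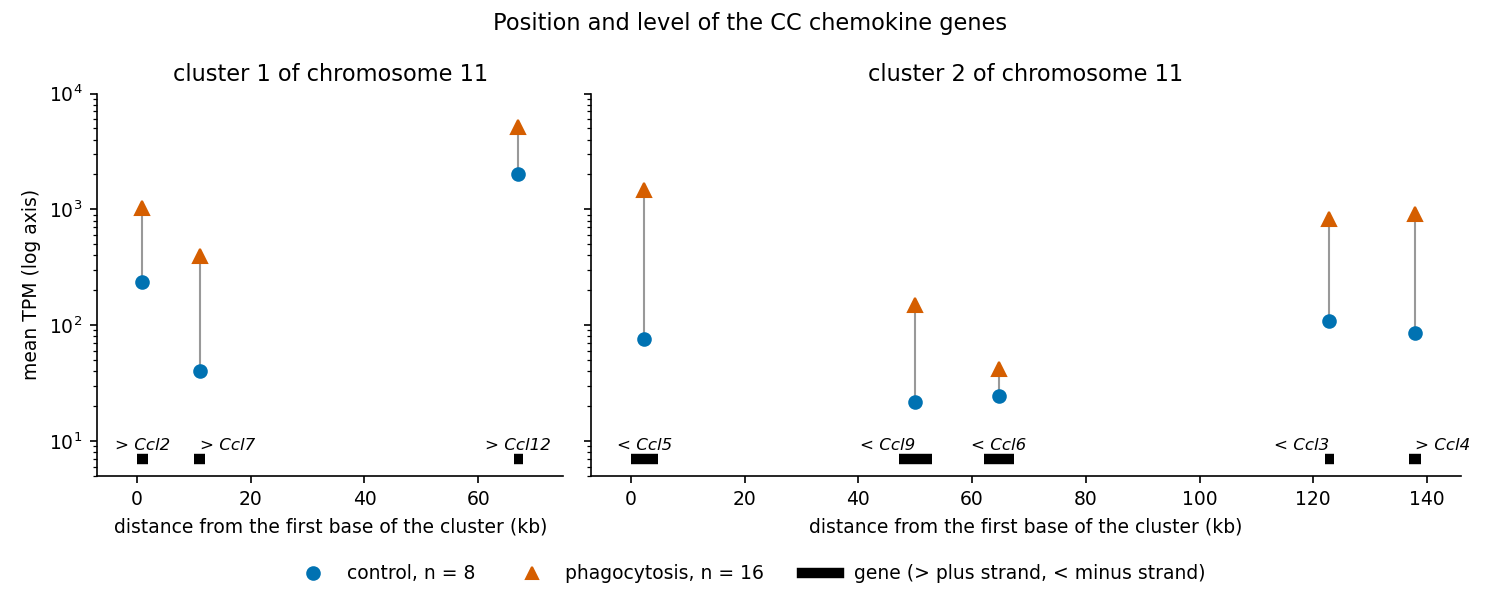
Mean TPM (log axis) of each gene in the 8 control libraries (circles) and the 16 phagocytosis libraries (triangles) against the gene's distance in kb from the first base of its cluster, with genes drawn to scale as black bars. Both the highest gene, Ccl12 (2037 and 5187 TPM), and genes with far lower control levels, such as Ccl7 (40 and 394 TPM), lie in the first cluster.

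Totals ran from 421107 to 1013797 expected reads per library. Transcripts that resemble satellite repeats took 1.52 to 23.2% of a library's reads, and over 20% in 3 control libraries, and the calls that changed without those 3 are given below. The sorted cells carried the microglial marker list at a summed 46180 CPM (reads scaled to a common library size with TMM normalisation) ± 4702 (SD, n = 8) in controls and 32940 ± 8538 (SD, n = 16) in phagocytosis libraries, and 8 of its 14 genes fell. Of 12 markers of border macrophages, which also make CC chemokines, 7 were abundant enough to test and 6 rose; their sum was 901 to 1578 CPM in controls and 1350 to 2163 CPM in phagocytosis libraries. Most of that sum is Stab1 (1035 and 1464 CPM), while the defining genes Lyve1 and Cd163 had means of 0.281 and 0.584 CPM in controls and 4.78 and 3.15 CPM in phagocytosis libraries. Monocyte markers summed to 22.1 to 100.3 CPM in controls and 37.4 to 274 CPM in phagocytosis libraries, with 1 of the 5 tested higher, and no gene of these 3 lists was at 0 in all libraries of a state. Of the lists for other cells, 1 of 5 tested B cell genes fell (421 and 281 CPM summed), none of 3 neutrophil genes (35.6 and 51.1 CPM) or 1 mast cell gene (6.15 and 4.34 CPM) passed, 2 of 3 astrocyte genes rose and 1 fell (108 and 106 CPM), and 1 of 4 oligodendrocyte (160 and 222 CPM), 1 of 2 neuronal (17.7 and 53.9 CPM) and 1 of 2 endothelial genes (38.0 and 73.4 CPM) rose. The part of these cells in the chemokine values was not tested. Beside these marker counts, 8.41% of all tested genes rose and 5.18% fell. In such bulk libraries, fewer cells of a type and less RNA per cell cannot be told apart.

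Most of the 8 chemokines stood at a higher level in phagocytosis libraries than in controls, and they differed widely in how much. Their sum was 1369 CPM ± 415 (SD, n = 8) in control and 4412 ± 1840 (SD, n = 16) in phagocytosis libraries. Ccl12 made up 66.6% ± 7.48 (SD) of that sum in controls and 41.0% ± 11.6 (SD) in phagocytosis libraries. The mean fold over the 4 sex and genotype groups was largest for Ccl5, with a log2 fold of 4.79 ± 0.83 (SE), and smallest for Ccl6, at 0.37 ± 0.22. Past edgeR's threshold (Benjamini-Hochberg adjusted p under 0.05) were 6 of the 8, all higher, beside 8.41% of all tested genes; since this comparison chose the members, nothing is read from that count. The median log2 fold was 2.37 over the members and -0.0052 over all genes tested. Libraries of the 2 states did not overlap at all for 4 members, Ccl3, Ccl4, Ccl7 and Ccl9, where 0.796% of all genes were higher without overlap.

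**Figure D2:**
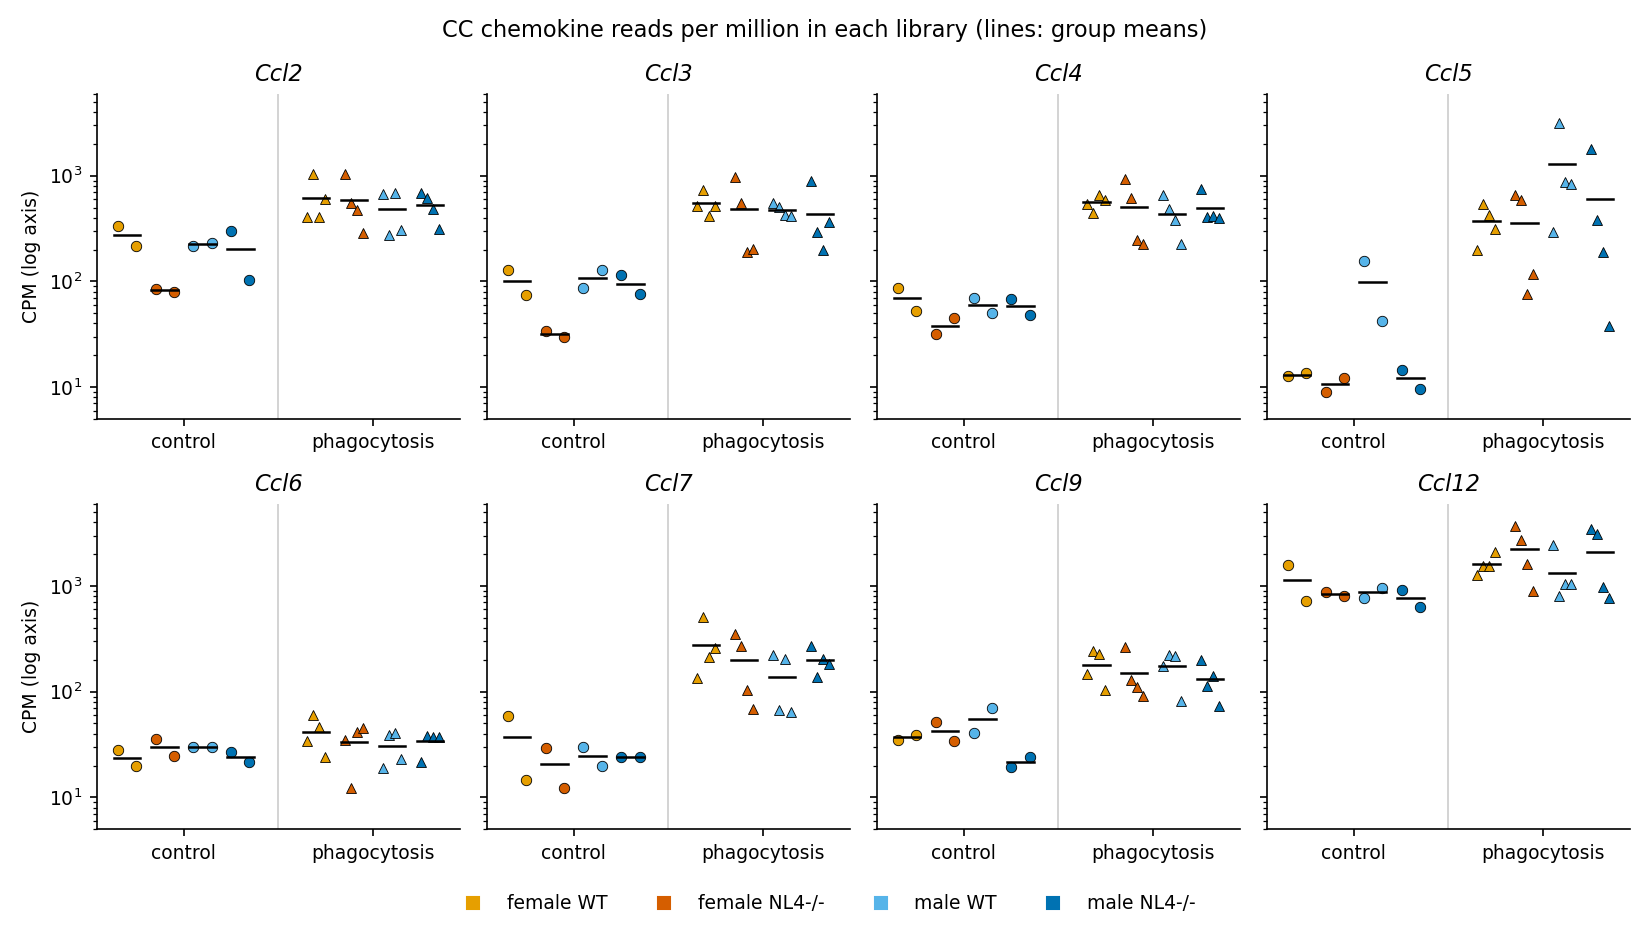
CPM (log axis) of each member in every library, with controls (circles) left and phagocytosis libraries (triangles) right, coloured by sex and genotype, and horizontal lines at the group means. Ccl3, Ccl4, Ccl7 and Ccl9 separate the states without overlap, Ccl5 ranges from 37.5 to 3167 CPM among phagocytosis libraries, and Ccl6 stays between 12.2 and 60.4 CPM throughout.

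Among the ligands of Ccr2, Ccl12, the mouse monocyte attractant that resembles Ccl2, was the most abundant. Its control values were 1569 and 718 CPM in female WT, 870 and 803 in female NL4-/-, 777 and 960 in male WT, and 917 and 638 in male NL4-/-. Its phagocytosis values were 1272, 1529, 1556 and 2094 in female WT, 3716, 2750, 1608 and 902 in female NL4-/-, 2467, 805, 1041 and 1035 in male WT, and 3488, 3124, 973 and 773 in male NL4-/-. Both states thus reached down to similar values: 7 of the 16 phagocytosis libraries were above every control, and the 5 highest values were all NL4-/- or male WT phagocytosis libraries. The mean log2 fold was 0.99 ± 0.33 (SE), the smallest after that of Ccl6.

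Ccl2, the main monocyte attractant of this family, had 335 and 219 CPM in the female WT controls, 85.4 and 79.2 in female NL4-/-, 216 and 232 in male WT, and 299 and 103 in male NL4-/-. In phagocytosis libraries it had 407, 1038, 408 and 606 CPM in female WT, 1041, 555, 473 and 285 in female NL4-/-, 667, 273, 692 and 310 in male WT, and 694, 615, 482 and 310 in male NL4-/-. Within each sex and genotype every phagocytosis library was above both controls, yet across them 4 of the 16 lay below the highest control. The mean log2 fold was 1.62 ± 0.30 (SE). Ccl7, which also binds Ccr1 and Ccr3, was at 12.3 to 59.3 CPM in controls (median 24.1) and 64.5 to 506 CPM in phagocytosis libraries (median 204), with a log2 fold of 2.93 ± 0.45 (SE). The lowest phagocytosis library, at 64.5 CPM in male WT, stood just above the highest control, at 59.3 CPM in female WT.

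The macrophage inflammatory proteins separated the states fully. Ccl4 was at 86.0 and 52.8 CPM in female WT controls, 31.5 and 45.0 in female NL4-/-, 70.4 and 49.96 in male WT, and 67.95 and 48.0 in male NL4-/-. Its phagocytosis values were 544, 443, 662 and 592 in female WT, 940, 620, 248 and 228 in female NL4-/-, 650, 488, 379 and 228 in male WT, and 746, 407, 414 and 399 in male NL4-/-. Even the lowest of these, at 228 CPM, was far above the highest control, and the log2 fold was 3.16 ± 0.30 (SE). Ccl3, its near neighbour and partner as a macrophage inflammatory protein, had 128 and 73.7 CPM in female WT controls, 33.7 and 30.03 in female NL4-/-, 87.5 and 127 in male WT, and 114 and 76.7 in male NL4-/-. With phagocytosis it had 513, 741, 413 and 523 CPM in female WT, 974, 553, 189 and 204 in female NL4-/-, 548, 507, 426 and 414 in male WT, and 888, 296, 199 and 366 in male NL4-/-. Again no library overlapped, and the WT libraries lay closer together than the NL4-/- ones. The log2 fold was 2.67 ± 0.35 (SE).

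Ccl5, also known as RANTES and an attractant of T cells, had both the largest difference and the largest spread. Its controls had 12.8 and 13.5 CPM in female WT, 8.99 and 12.3 in female NL4-/-, 156 and 42.4 in male WT, and 14.6 and 9.59 in male NL4-/-. The phagocytosis libraries had 197, 544, 426 and 314 CPM in female WT, 660, 588, 75.4 and 119 in female NL4-/-, 291, 3167, 868 and 843 in male WT, and 1808, 382, 190 and 37.5 in male NL4-/-. Both male WT controls stood above the other 6, and 3 of the 16 phagocytosis libraries, all NL4-/-, were below the higher of them. Within each sex and genotype the states did not overlap. T and NK cells make much Ccl5, and their 18 markers summed to 9.56 to 26.7 CPM in controls (72 reads) and 0 to 32.1 CPM in phagocytosis libraries (164 reads), with none abundant enough to test and 3 at 0 in all controls. In the library with most Ccl5 (male WT phagocytosis 2) these markers summed to 16.1 CPM. The part of T and NK cells in the Ccl5 values was not tested.

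The ligands of Ccr1 came last. Ccl9 was at 19.4 to 69.6 CPM in controls (median 37.1) and 73.1 to 265 CPM in phagocytosis libraries (median 145), with a log2 fold of 2.08 ± 0.27 (SE). The lowest phagocytosis library, in male NL4-/-, and the highest control, in male WT, were 73.1 and 69.6 CPM, so the states separated narrowly. Ccl6 was at 19.6 to 36.0 CPM in controls (median 27.3) and 12.2 to 60.4 CPM in phagocytosis libraries (median 37.5). Its states overlapped in each of the 4 sex and genotype groups, and it had 6 to 38 reads in a library.

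Compared per length, the order of the genes changed between the states. In controls mean TPM ran from Ccl12 (2037 ± 926, SD, n = 8) over Ccl2 (235 ± 136), Ccl3 (108 ± 54.2), Ccl4 (85.0 ± 42.6), Ccl5 (76.3 ± 143), Ccl7 (40.0 ± 28.2) and Ccl6 (24.6 ± 13.1) to Ccl9 (21.7 ± 12.1). Ccl12 was above Ccl2, and Ccl2 above Ccl3, in all 8 control libraries. From Ccl5 down, neighbours did not differ beyond their spread: Ccl5 was above Ccl7 in 4 of 8 libraries, Ccl7 above Ccl6 in 5, and Ccl6 above Ccl9 in 4. In phagocytosis libraries the order was Ccl12 (5187 ± 3145, SD, n = 16), Ccl5 (1475 ± 1734), Ccl2 (1027 ± 489), Ccl4 (903 ± 390), Ccl3 (820 ± 448), Ccl7 (394 ± 233), Ccl9 (149 ± 74.9) and Ccl6 (41.7 ± 14.7). Ccl5 owes its place to a few libraries, being above Ccl2 in 6 of 16, and Ccl2 was above Ccl4 in 9. The steps from Ccl3 to Ccl7, Ccl7 to Ccl9 and Ccl9 to Ccl6 each held in 15 of 16.

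Within each sex and genotype the folds of all members but Ccl6 clearly pointed the same way. No log2 fold was below 0 in any of the 4 groups, with a median over the 8 members of 2.35 for female WT, 3.08 for female NL4-/-, 1.88 for male WT and 2.39 for male NL4-/-. The smallest was 0.00 ± 0.44 (SE) for Ccl6 in male WT, which has no direction. With 1 library left out, the Ccl6 fold went as low as -0.14 in male WT and -0.03 in female NL4-/-. Past edgeR's threshold were 2, 2, 1 and 1 members, beside 0.541, 0.408, 0.316 and 0.5% of all genes called higher; the members were chosen with these values known, so nothing is read from these counts or the next. Libraries did not overlap for 6, 7, 6 and 6 members, beside 11.5, 12.1, 9.09 and 11.5% (in the same order) of all genes higher without overlap. Ccl4 had folds from 2.87 ± 0.59 (SE) in male WT to 3.69 ± 0.62 in female NL4-/-. Ccl2 ranged from 1.12 ± 0.57 in male WT to 2.84 ± 0.64 in female NL4-/-, where both controls were low. Several of these folds rested on 1 library: without control 1, Ccl7 in female WT went from 2.87 to 4.20 and Ccl2 in male NL4-/- from 1.39 to 2.37. The Ccl7 fold was 2.19 without control 2. Leaving out control 1 also moved Ccl12 in female WT from 0.50 to 1.18 and Ccl7 in female NL4-/- from 3.32 to 4.004. For Ccl5, the male WT fold of 3.74 became 4.95 without control 1, 3.07 without control 2 and 2.80 without phagocytosis library 2, and the male NL4-/- fold of 5.62 became 4.09 without phagocytosis library 1. For Ccl3, leaving out phagocytosis library 1 moved the fold in female NL4-/- from 3.91 to 3.30 and in male NL4-/- from 2.19 to 1.60.

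**Figure D3:**
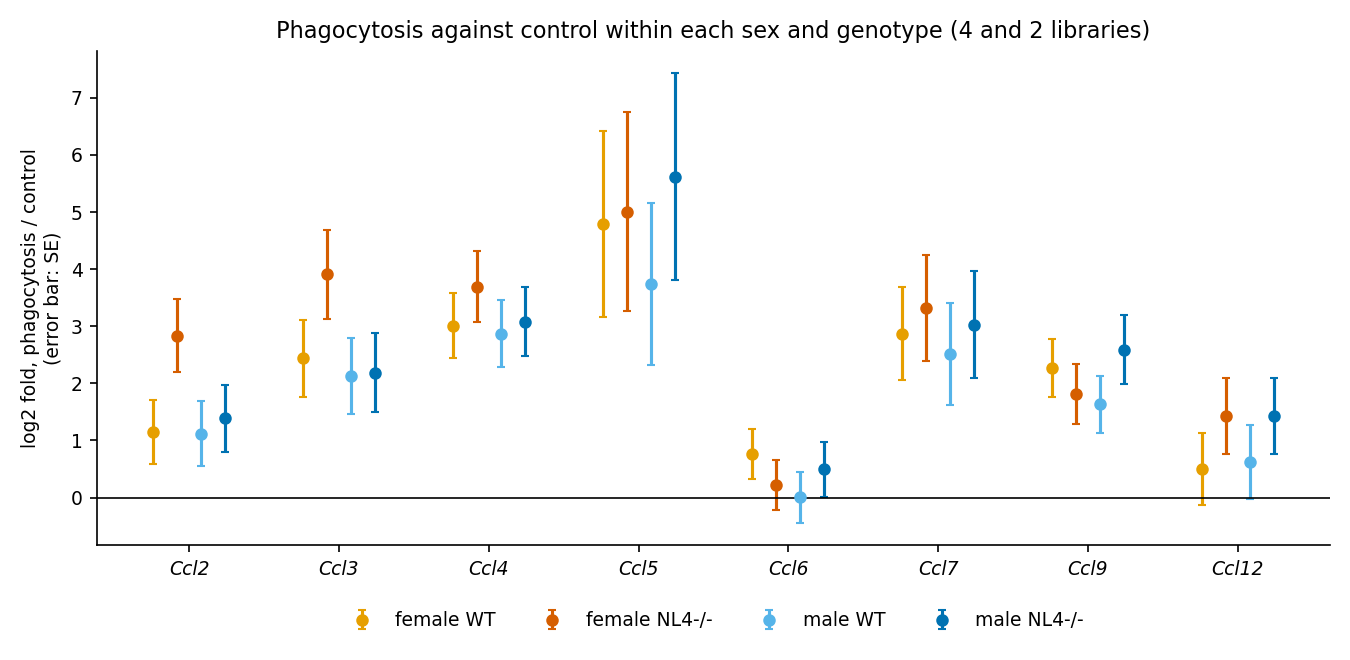
Log2 fold of phagocytosis over control libraries for each member in the 4 sex and genotype groups (4 phagocytosis and 2 control libraries in each). Points carry standard errors derived from edgeR's test statistic. The female NL4-/- points for Ccl2 and Ccl3, at 2.84 and 3.91, are the highest of their genes, and the Ccl5 errors, from 1.42 to 1.81, are the widest.

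The genotype comparison asks whether loss of neuroligin-4 changes these genes, and none of the 8 differed past the threshold. In phagocytosis libraries, averaged over the sexes, Ccl12 was at 2167 CPM in NL4-/- and 1475 in WT, a log2 fold of 0.56 ± 0.36 (SE, 95% interval -0.14 to 1.26, edgeR adjusted p = 0.944). Ccl5 was at 483 CPM in NL4-/- and 831 in WT, a log2 fold of -0.57 ± 0.66 (-1.86 to 0.72, adjusted p = 0.988). Ccl9 was at 140 and 177 CPM, a log2 fold of -0.34 ± 0.25 (-0.84 to 0.16, adjusted p = 0.966). Ccl3 gave -0.16 ± 0.34, and Ccl2, Ccl4, Ccl6 and Ccl7 all lay within 0.03 of 0 with intervals that reach from -0.76 to 0.79 at their widest. The percent of all genes called was 0 by edgeR, with 500 genes at an unadjusted p under 0.05 and 1 gene called by DESeq2. None of the members was among either.

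Each member's NL4-/- and WT libraries overlapped in both sexes with phagocytosis, beside 3.29% of all genes in females and 2.5% in males that did not overlap. Within either sex edgeR called 0% of genes (510 and 465 at an unadjusted p under 0.05) and DESeq2 3 and 0, none a member. In females Ccl12 was at 2244 CPM ± 1242 (SD, n = 4) in NL4-/- and 1613 ± 345 in WT, and in males at 2090 ± 1415 and 1337 ± 761. The NL4-/- libraries were thus the more spread, with values both above and below the WT range. Ccl5 in males was at 605 CPM ± 815 in NL4-/- and 1292 ± 1278 in WT. Its log2 fold there of -1.10 ± 0.93 (adjusted p = 1) became -2.66 without NL4-/- library 1 and -0.15 without WT library 2. Leaving out NL4-/- library 1 of the males also moved the mean over the sexes to -1.36.

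Control libraries showed the lowest unadjusted p for genotype in Ccl2. Female controls had 82.3 CPM ± 4.41 (SD, n = 2) in NL4-/- and 277 ± 82.1 in WT, a log2 fold of -1.75 ± 0.67 (SE), with an unadjusted p of 0.0181 and an adjusted p of 1 by edgeR. Ccl3, Ccl4 and Ccl5 were also lower in both female NL4-/- controls than in both WT controls, at 31.9 against 101, 38.3 against 69.4 and 10.6 against 13.1 CPM. In the male controls Ccl5 (12.1 against 99.1 CPM), Ccl6 (24.1 against 30.1) and Ccl9 (21.7 against 55.1) were lower in both NL4-/- libraries. Of all genes, 18.2% in females and 17.4% in males were lower in both NL4-/- controls. The immediate early genes, which isolation of the cells can induce, moved with the female difference: their sum was 1068 and 1263 CPM in the female NL4-/- controls and 3667 to 4849 CPM in the other 6 controls, and their median log2 fold was -1.71, against 0.04 in males. Their part in the chemokine values was not tested. Ccl2 itself overlapped in male controls, at 201 ± 138 and 224 ± 11.3 CPM. Fitted on the female control groups alone, Ccl2 (adjusted p = 0.00452) and Ccl3 (adjusted p = 0.0451) passed; 0.299% of all genes passed in that fit, which takes its spread from 2 libraries a group. In the fit over all libraries 0% of genes passed edgeR's threshold for genotype in female or male controls, with 210 and 328 genes at an unadjusted p under 0.05 and 4 and 5 called by DESeq2, none a member.

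**Figure D4:**
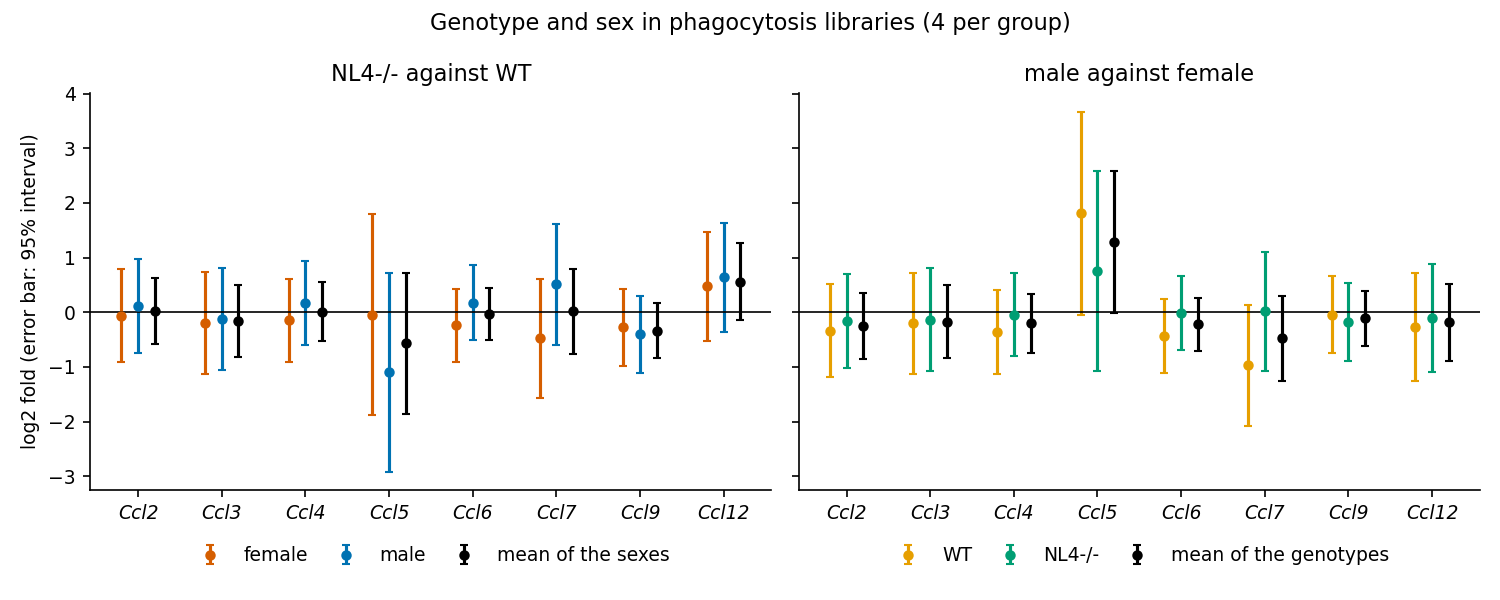
Log2 folds from edgeR with approximate 95% intervals (normal, from SE derived from the test statistic) in phagocytosis libraries, 4 in each group. NL4-/- against WT is left and male against female right, with the mean over sexes or genotypes in black. Every interval includes 0; those of Ccl5 are widest, as in -1.86 to 0.72 for the mean genotype fold and -0.018 to 2.59 for the mean sex fold.

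Sex was compared in the same way. Ccl5 was the member that differed most, at 948 CPM in male and 365 in female phagocytosis libraries over the genotypes, a log2 fold of 1.28 ± 0.66 (SE, -0.018 to 2.59, edgeR unadjusted p = 0.0708, adjusted p = 1). Without male NL4-/- phagocytosis library 1 that fold was 0.52. In WT alone it was 1.81 ± 0.95 (adjusted p = 0.691), and 0.86 without male WT library 2. The other 7 members were slightly lower in males, by log2 folds of -0.11 (Ccl9) to -0.48 (Ccl7), all with an adjusted p of 1. Over all genes 4 passed, 0.0408% of those tested, and 0 members. Within WT phagocytosis libraries 0.0204% of genes passed, within NL4-/- phagocytosis libraries 0.0102%, within NL4-/- controls 0.0102% and within WT controls 0%, again with 0 members in each. Each member's male and female phagocytosis libraries overlapped within both genotypes.

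Differences between differences were no clearer. No member passed in any of the 6 interactions of state, genotype and sex, where 0% of all genes passed and between 167 and 467 genes had an unadjusted p under 0.05. DESeq2 called 2 to 6 genes in them and 0 members. The lowest p was for Ccl2 in females, whose fold with phagocytosis was larger in NL4-/- by 1.69 ± 0.80 on the log2 scale (SE, unadjusted p = 0.048, adjusted p = 1). That value draws on the same 4 female controls as the genotype difference above.

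Members varied among libraries of 1 group more than most genes. The biological coefficient of variation, the spread between libraries beyond counting error, was 0.865 for Ccl5, higher than in 97.2% of all tested genes, 0.547 for Ccl7 (92.5%), 0.484 for Ccl12 (89.5%), 0.46 for Ccl3 (87.9%), 0.42 for Ccl2 (84.3%), 0.383 for Ccl4 (79.2%) and 0.353 for Ccl9 (74.2%). Ccl6, at 0.278, was near the median of 0.266. Within male NL4-/- phagocytosis libraries alone, Ccl5 spanned 48.2-fold between lowest and highest. In male WT it spanned 10.9-fold and in female WT 2.77-fold.

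The deviations of the 16 phagocytosis libraries from their group means went together for most members. All 21 pairs without Ccl6 had a positive Pearson correlation of log2 CPM, from 0.277 (Ccl5 and Ccl7) to 0.863 (Ccl2 and Ccl7), with 0.783 for Ccl3 and Ccl4. Of the 7 pairs with Ccl6, 6 were negative, the lowest -0.522 with Ccl12. These are descriptions over 16 libraries that share normalisation and sorting. Female NL4-/- phagocytosis library 1 had the highest value of its group for 7 members, all but Ccl6, and male NL4-/- library 1 did so for Ccl2, Ccl3, Ccl4, Ccl5, Ccl7, Ccl9 and Ccl12.

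The labels number the phagocytosis libraries 1 to 4 without saying what the number stands for, and the numbers did not pair the samples, as given below. On the mean over the 4 groups, libraries 1 and 2 were higher than 3 and 4 for 7 members. The share of all genes that differed in this way was not computed, so nothing is read from this count. The mean log2 difference over the 4 groups was 1.48 for Ccl5, 0.88 for Ccl3, 0.85 for Ccl12, 0.67 for Ccl4, 0.57 for Ccl9 and 0.52 for both Ccl2 and Ccl7, against -0.26 for Ccl6. Not every group followed these means. Ccl7 differed by 1.84 in female NL4-/- and by 0.16, 0.09 and -0.01 in female WT, male WT and male NL4-/-. Ccl2 differed by -0.12 in male WT and Ccl4 by -0.35 in female WT. Ccl5 differed by 2.68 in female and 3.24 in male NL4-/-, and by -0.16 and 0.17 in female and male WT. Ccl12 differed by 1.41 and 1.92 in the NL4-/- groups and by -0.37 and 0.44 in WT, whereas Ccl4 differed more in male WT (0.93) than in male NL4-/- (0.44). The median of the interferon list moved with it, by 1.62 in both NL4-/- groups, -0.42 in female WT and 0.75 in male WT, while that of the microglial markers moved by -0.59 on average and that of the immediate early genes by 0.01. Their part in the chemokine values was not tested. The genotype fold differed accordingly: for Ccl12 it was 1.12 with libraries 1 and 2 alone and -0.41 with 3 and 4 alone, for Ccl5 0.07 and -2.40. With libraries 3 and 4 alone, Ccl4 was lower in female NL4-/- by a log2 fold of -1.42 (edgeR adjusted p = 0.0371, beside 0.0426% of all genes called in that fit), which was the one genotype call for a member in phagocytosis libraries under any setting tried.

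**Figure D5:**
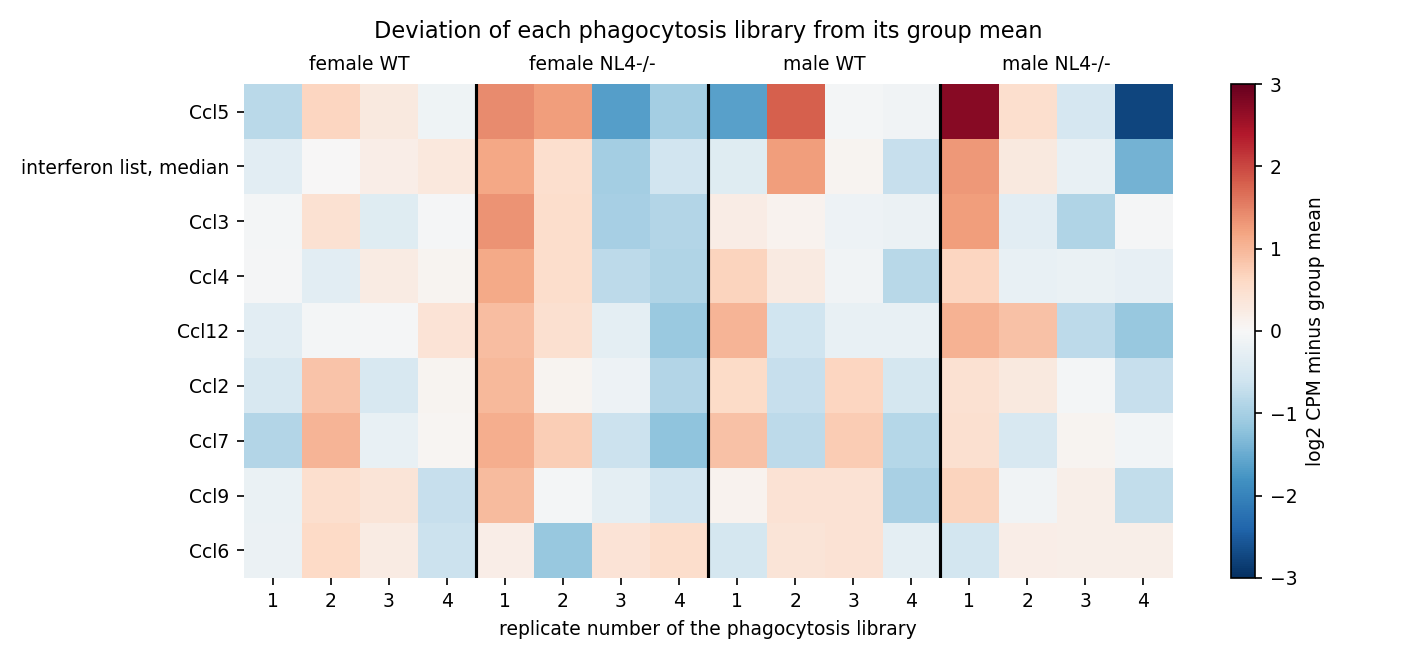
Log2 CPM of each phagocytosis library minus its group mean (colour), for the members and the median of the interferon list, with libraries ordered by sex, genotype and the number in their label. In both NL4-/- groups library 1 is red and library 4 blue for Ccl5 and the interferon list, with list medians of 1.15 and -0.57 in females and 1.29 and -1.42 in males.

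Genes whose deviations were most like those of Ccl5 over the 16 phagocytosis libraries were Fcgr1 (r = 0.928), an Fc receptor, Ifitm3 (r = 0.924) and Zbp1 (r = 0.921), both interferon-induced. For Ccl3 they were Faf2 (0.907), Ehd1 (0.901) and Kcnmb4 (0.88), and for Ccl4 Itpkb (0.909), Ltbr (0.904), a receptor of the TNF receptor family, and Tpst1 (0.87), an enzyme that sulfates tyrosines. For Ccl12 they were Ddx39 (0.924), Slc39a14 (0.869) and Abhd11 (0.863), and Abhd11 was also among the 3 most like Ccl2 (0.848, after Mrpl19 at 0.878). These r are the highest picked from all tested protein-coding genes, where values this high can arise by chance, and no test was run. Ccl6, with few reads, had a best r of 0.921, and Kcnmb4 was at only 4.56 CPM ± 9.29 (SD, n = 16). No partner is read from these lists.

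Of 15 receptors of the family, including atypical ones that take ligands up without signalling, 11 had at least 10 reads in all and few were abundant enough to test. Ccr1, the receptor of Ccl6 and Ccl9, was at 17.8 CPM ± 5.85 (SD, n = 8) in controls and 25.4 ± 14.2 (SD, n = 16) in phagocytosis libraries (edgeR adjusted p = 0.41). Ccrl2, an atypical receptor, was at 23.1 ± 22.6 and 27.8 ± 30.9 CPM (adjusted p = 0.548).

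Ccr7, which guides cells to lymph nodes, had 12 reads in controls and 168 in phagocytosis libraries, and 1 library alone reached 127 CPM where the median was 3.35 (adjusted p = 0.967). Ccr2, the receptor of Ccl2, Ccl7 and Ccl12, was too low to test, at 10 reads in 8 controls and 56 in 16 phagocytosis libraries, or 2.21 and 4.93 CPM. The remaining receptors with 10 reads or more were likewise below the filter: Ccr9 with 18 and 45 reads, Ccr6 with 6 and 23, Ackr4 with 7 and 16, Ccr4 with 5 and 8, Ackr2 with 4 and 8 and Ccr1l1 with 5 and 6. Ccr8 had 0 reads in every library.

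The other CC ligands were scarce. Of 16, 7 had at least 10 reads in all 24 libraries together and 5 had none. Ccl22, an attractant of regulatory T cells and the only one abundant enough to test, had 8 reads in controls and 63 in phagocytosis libraries, or 1.70 CPM ± 1.17 and 5.82 ± 5.88 (edgeR adjusted p = 0.117). Ccl25 had 40 and 84 reads (8.67 and 7.68 CPM), Ccl24, a ligand of Ccr3, had 16 and 49 (3.03 and 4.81 CPM), Ccl27a 4 and 21, Ccl28 9 and 12, Ccl8 1 and 14, and Ccl17 4 and 6. Reads of the family thus lay almost wholly in the 8 members: the other 16 ligands summed to 17.3 CPM ± 5.03 in controls and 23.5 ± 8.22 in phagocytosis libraries.

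Of 28 genes tested that carry the signal of chemokine receptors (G protein subunits, arrestins, receptor kinases, phosphoinositide 3-kinase, Rac activators), 6 fell, 0 rose and 22 did not pass, beside 5.18% of all genes that fell, and their median log2 fold was -0.20 against -0.0052 over all genes. Those with the smallest p were Elmo1, which with Dock proteins activates Rac (516 to 333 CPM, log2 fold -0.63 ± 0.13, adjusted p = 0.00134), and Rgs2, which turns G proteins off (220 to 133 CPM, -0.72 ± 0.15, adjusted p = 0.00178). Arrb1, an arrestin, fell by 0.54 (adjusted p = 0.0124) and Pik3r6, a subunit of the receptor-driven phosphoinositide 3-kinase, by 0.58 (adjusted p = 0.0168). Without the satellite-rich controls 1 of 29 passed, and Rgs2 (log2 fold -0.67, adjusted p = 0.0551), Arrb1 (-0.52, adjusted p = 0.135) and Pik3r6 (-0.62, adjusted p = 0.077) did not. With length-scaled counts 2 fell and 3 rose. The count was 3 without female WT control 2, and 2 without male WT control 2 or without male NL4-/- control 2.

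Among 27 regulators of NF-kB and interferon signalling, 4 rose and 2 fell, beside 8.41% of all genes that rose and 5.18% that fell. Ikbke, a kinase that activates interferon regulatory factors, went from 6.25 to 42.5 CPM (log2 fold 2.85 ± 0.37, adjusted p = 3.77e-06), and Irf7, the factor that amplifies the interferon response, from 21.2 to 189 CPM (3.23 ± 0.60, adjusted p = 0.00188). Nfkbia, the inhibitor of NF-kB that NF-kB itself induces, also rose (log2 fold 0.58, adjusted p = 0.0307). The NF-kB subunits Rel (45.3 to 29.3 CPM, -0.64 ± 0.18, adjusted p = 0.0173) and Nfkb1 (159 to 120 CPM, -0.40 ± 0.12, adjusted p = 0.0235) fell. Neither passed without the satellite-rich controls, at log2 folds of -0.28 and -0.41, or with length-scaled counts (edgeR adjusted p = 0.0725 and 0.0817). Among other alternatives, Rel did not pass with phagocytosis libraries 3 and 4 only (adjusted p = 0.0648). Nfkb1 did not pass with library totals alone (adjusted p = 0.0823), without a filter (0.0636) or with phagocytosis libraries 1 and 2 only (0.118). Both folds also hung on single controls. With 1 library left out, Rel ran from -0.76 to -0.41, the weakest without male WT control 2. Nfkb1 ran from -0.44 to -0.29, the weakest without male NL4-/- control 2. The list's median log2 fold was 0.22, and 3 genes passed without female WT control 2, without male WT control 2 or without male NL4-/- control 2, and 2 without female NL4-/- control 1.

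The interferon list moved much more. Of 27 genes tested 23 rose and 0 fell, beside 8.41% of all genes that rose, with a median log2 fold of 2.56. Like the signalling, NF-kB and immediate early lists, this list was chosen with earlier results of these data known. The counts of these lists are therefore not independent support. Rtp4 went from 8.64 to 44.5 CPM (2.43 ± 0.40, adjusted p = 0.000189), Bst2, which tethers budding virus, from 145 to 458 CPM (1.65 ± 0.27, adjusted p = 0.000453), Zbp1, a nucleic acid sensor, from 6.67 to 46.0 CPM (2.84 ± 0.50, adjusted p = 0.000668), and Ifi204 from 13.4 to 52.1 CPM (2.10 ± 0.38, adjusted p = 0.00076). The summed list was 427 to 1074 CPM in controls, where male WT control 1 was highest for both this list and Ccl5, and 887 to 6505 CPM in phagocytosis libraries, where male WT library 2 was highest for both. Without the 3 satellite-rich controls 6 of 27 passed, with a median log2 fold of 2.38.

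Isolation of brain cells can itself induce chemokines together with immediate early genes. Beside 8.41% of all genes that rose, 5 of 21 such genes tested rose and 0 fell, with a median log2 fold of 0.46. They were Atf3 (26.3 to 119 CPM, log2 fold 2.21 ± 0.22, adjusted p = 8.93e-08), Gadd45b (3.43 to 47.5 CPM, 3.80 ± 0.40, adjusted p = 9.51e-08), Dusp2 (1.60 to 15.2 CPM, adjusted p = 0.00363), Dusp1 (303 to 419 CPM, 0.87 ± 0.24, adjusted p = 0.0181) and Klf6 (171 to 224 CPM, 0.38 ± 0.11, adjusted p = 0.0238). Fos, Jun and Egr1, the best known of them, did not pass, at 188 and 172, 906 and 730, and 213 and 178 CPM in control and phagocytosis libraries. The summed list was 3428 CPM ± 1458 in controls, with both female NL4-/- controls far below the others as given above, and 3488 ± 1020 (2204 to 6281) in phagocytosis libraries. Its median log2 fold was 1.34 in female NL4-/-, the group with the largest folds of Ccl2 and Ccl3, and 0.06, 0.20 and -0.22 in female WT, male WT and male NL4-/-. It had 3 genes past the threshold without male WT control 1 and 2 without the satellite-rich controls, where Dusp1 (log2 fold 0.92, adjusted p = 0.0996) and Dusp2 (adjusted p = 0.0528) did not pass. Its part in the chemokine values was not tested.

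The RefSeq promoters at hand covered Ccl3, Ccl6, Ccl9 and Ccl12, and the 250 bases before each start were searched on both strands for 3 motifs. Ccl9 is shown because it alone had a match to the NF-kB motif (kappa B consensus), in capitals, 35 to 26 bases before the start (GRCm38.p6, chr11:83578637-83578886, minus strand).
Ccl9: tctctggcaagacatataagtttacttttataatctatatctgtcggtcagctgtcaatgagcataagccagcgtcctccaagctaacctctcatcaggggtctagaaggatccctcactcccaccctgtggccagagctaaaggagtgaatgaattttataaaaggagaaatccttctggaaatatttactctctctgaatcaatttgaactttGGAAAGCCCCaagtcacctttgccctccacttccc
The kappa B motif occurs in 3.9% of the 32851 promoters of this length. Ccl9 also had a match to TGANTCA, a loose form of the AP-1 motif with any base at its centre, 53 to 47 bases before its start (in 6.75% of promoters). The matched bases were TGAATCA, and they do not overlap the first motif. The interferon-stimulated motif GAAANNGAAA (in 2.98%) was in none of the 4 windows, and Ccl3, Ccl6 and Ccl12 held none of the 3 motifs.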

How the data were processed

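Libraries of 1000 sorted cells were made by Smart-Seq2, per the labels' protocols. Per the file headers, the deposited files give for each of 116945 transcripts the authors' expected count of reads (not normalised), the authors' TPM and an effective length; the quantifier, index and build are not stated in the labels or headers. Of these transcripts 116023 matched GENCODE vM21 (GRCm38) and 922, with 0.274 to 0.379% of a library's reads, were left out. Expected counts were summed per gene, rounded and tested with edgeR 4.0.16 in R 4.3.3: TMM normalisation, a minimum count of 10, 8 group means over all 24 libraries, robust quasi-likelihood tests, 21 comparisons, two-sided p adjusted by Benjamini-Hochberg over 9803 genes, threshold 0.05. Log2 folds carry a prior count of 0.125. Levels are given as TMM-normalised CPM, or as the deposited TPM summed per gene where genes are compared. Precision is limited by totals of 421107 to 1013797 reads, and the labels name no molecular identifiers, so reads are not independent molecules.

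The test was checked on simulated counts with 200 changed genes. For genotype in female phagocytosis libraries it recovered 27% of changes with a log2 fold of 1 and 96% with 2. For genotype averaged over the sexes it recovered 82 and 100%, and between the states 87 and 100%. The simulated spread was below the biological coefficient of variation of all members but Ccl6, and recovery at the members' own spread was not simulated. Alternatives were DESeq2 1.42.0, other scalings and filters, length-scaled counts from the deposited TPM, a replicate block and subsets of libraries. The members and gene lists were chosen with earlier results of these data known. Named genes are the 8 members, CC ligands and receptors with at least 10 reads, up to 4 genes of each other list with the smallest p between the states, and the 3 genes most correlated (log2 CPM with a prior count of 2) with each member; Nfkbia, Klf6, Fos, Jun, Egr1 and the cell markers named were added after their values were seen. Sequences are from GENCODE vM21 and, for promoters, RefSeq (GRCm38.p6), which covered 4 of the 8 members. Some genes of the lists are not reported here. No columns of other samples were present.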

Additional observations from a re-analysis of the deposited data

Results flagged for a closer look

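In 32 checks of 1 member in 1 phagocytosis group of 4 libraries, 3 had a library set far from the other 3; chance flags about 1 group in 20. Ccl4 in male NL4-/- had its highest library at 746 CPM, with the other 3 between 399 and 414. Ccl6 in the same group had its lowest library at 21.7 CPM, with the others between 37.5 and 38.4; both are library 1. Ccl12 in male WT had its highest library at 2467 CPM, also library 1, with the others between 805 and 1041.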

How the results depend on the processing

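The 8 members' mean folds between the states kept their direction under all 38 alternatives. The members were chosen with this comparison known, so nothing is read from this. The same holds for the count of members with the replicate block below. Their log2 folds ran from 1.31 to 1.90 (Ccl2), 2.09 to 3.07 (Ccl3), 2.74 to 3.47 (Ccl4), 3.59 to 5.47 (Ccl5), 0.25 to 0.50 (Ccl6), 2.56 to 3.28 (Ccl7), 1.79 to 2.47 (Ccl9) and 0.43 to 1.37 (Ccl12). Of all genes 1332 passed, between 781 (without female WT control 2) and 1508 with 1 library left out, 885 with length-scaled counts, 410 without the satellite-rich controls and 782 with phagocytosis libraries 3 and 4 only. The share of calls that were higher was 61.9%, 73.8% with library totals alone and 80.5% without the satellite-rich controls. Without any filter the median log2 fold of all genes was 0.18.

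The replicate numbers did not pair the samples (no pair of groups had every same-number correlation over 0.1). With the number as a replicate block 1646 genes and 7 members passed between the states, 0 and 0 for genotype and 5 and 0 for sex, and the genotype folds of Ccl2, Ccl4 and Ccl7 turned to -0.068, -0.082 and -0.056; Dusp1 (log2 fold 0.88, adjusted p = 0.0539) and Nfkb1 (-0.35, adjusted p = 0.0922) did not pass. The male controls correlated at -0.117 by number; with the numbers of the male NL4-/- controls crossed, 0 genes passed for genotype there, as without.

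For genotype in phagocytosis libraries the count of all genes was 1 with DESeq2, 20 without a filter, 1 with libraries 1 and 2 and 2 with 3 and 4 only; within single groups 1 member passed with libraries 3 and 4 only (Ccl4) and 2 (Ccl2 and Ccl3) when only the groups compared were fitted. For sex the count was 7 with DESeq2, 36 without a filter, 1 with a minimum count of 30, 2 with length-scaled counts, 2 with libraries 3 and 4 only, and 2 without all libraries numbered 1 or 3; 1 member (Ccl3 in NL4-/- controls) passed, as did 0.255% of all genes, when only the groups compared were fitted. Genotype calls over all groups stayed at 0 and sex calls at 4 to 5 with 1 library left out.

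Of list genes between the states, the immediate early list gave 2 without the satellite-rich controls and 8 with libraries 1 and 2 only (3 to 6 with 1 library left out), the interferon list 6 without the satellite-rich controls (19 to 24), the NF-kB list 3 with length-scaled counts, without the satellite-rich controls and with libraries 3 and 4 only (2 to 9), and the signalling list 1 without the satellite-rich controls and 3 with libraries 3 and 4 only (2 to 8).

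Genotype and sex folds that turned sign did so without passing the threshold. With libraries 3 and 4 only, genotype folds were -0.388 (Ccl2), -0.498 (Ccl4), 0.261 (Ccl6), -0.457 (Ccl7) and -0.406 (Ccl12; -0.25 in males, -0.562 in females), sex folds 0.028 (Ccl2), 0.182 (Ccl3) and 0.184 (Ccl7), and the state fold of Ccrl2 -0.107. With libraries 1 and 2 only, genotype folds were 0.236 (Ccl3) and 0.068 (Ccl5), and the sex fold of Ccl12 0.133. With length-scaled counts the genotype fold of Ccl6 was 0.202. Without all libraries numbered 1, genotype folds were -0.249 (Ccl2), -0.245 (Ccl4) and -0.251 (Ccl7); without number 2, -0.026 (Ccl4), 0.235 (Ccl6) and, in males, 0.019 (Ccl5), with sex folds of 0.021 (Ccl3) and 0.038 (Ccl7); without number 3, 0.016 (Ccl3) and 0.000 (Ccl6). These number-wise alternatives and the crossed block were chosen after seeing the data. With 1 library left out, genotype folds ran from -0.201 to 0.214 (Ccl2), -0.243 to 0.148 (Ccl4), -0.126 to 0.09 (Ccl6) and -0.217 to 0.244 (Ccl7), and sex folds from -0.469 to 0.142 (Ccl3), -0.336 to 0.045 (Ccl4) and -0.229 to 0.116 (Ccl9). A group left with 1 library is assumed to vary like the others. The causes were not tested. Depth limits the ligands and receptors that were too scarce to test.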

Other observations

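The genes whose deviations most resembled those of the remaining members over the 16 phagocytosis libraries were the third for Ccl2, Nudt9 (r = 0.841), and for Ccl7 App (0.884), the amyloid precursor, Ssrp1 (0.871) and Tubb6 (0.864). For Ccl9 they were Slfn2 (0.873), Syne1 (0.854) and Spen (0.851), and for Ccl6 Dnajb9 (0.921), a chaperone of the endoplasmic reticulum, Sp3 (0.882) and Sugt1 (0.866). These too are the highest r picked from all tested protein-coding genes, and no partner is read from them. Reads of 5 members came from more than 1 annotated transcript: a second transcript took 21.1% of the Ccl2 reads, 11.4% of Ccl9, 1.17% of Ccl12 and 0.239% of Ccl5, and in Ccl6 2 further transcripts took 25.7% and 4.67%.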
